A study of Homo sapiens with 8 samples.

Results

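The genes described here are 10 inflammatory chemokines and cytokines: CXCL1, CXCL2, CXCL3, CXCL5, CXCL8, CCL20, IL6, LIF, IL1A and IL1B. They were chosen by name, and each was looked up by its Ensembl identifier in a table that pairs H3K27ac peaks with genes lying within 20 kb. Of the 10 genes, 9 had a row among the 43869 genes of the table, and 4 of these (CXCL8, CXCL2, CXCL1 and LIF) reached the minimum of 25 reads on the log2 scale in at least 1 library, as did 12701 genes in all. IL1B had no row, and the nearest peak of the table lay 34603 bp from it. The 9 genes were paired with 58 of 126470 peaks, and 37 of the 58 reached the minimum of 15 reads, as did 86432 peaks in all. The cells were H3122, a lung adenocarcinoma line that carries an EML4-ALK fusion, and derivatives of it that had evolved resistance under gradually raised doses of an ALK kinase inhibitor. The naive line had never been selected, erCriz0 was maintained in 0.5 µM crizotinib, erAlec0 in 2 µM alectinib and erLor0 in 2 µM lorlatinib. RNA was taken after 48 h without inhibitor, and the labels state a DMSO treatment for the cells used for chromatin. Each of the 4 lines had 1 RNA library and 1 H3K27ac ChIP-seq library, and each inhibitor is represented by 1 derivative. The 4 other samples of the series, erCriz1, erLor1, Lor 2w and the pooled input, were not analysed here.

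Values are regularised log2 read counts (rlog), in which a difference of 1 stands for a 2-fold difference and differences of weakly covered features are shrunk. Every difference is a resistant line minus naive, so the 3 comparisons share the naive library and are not independent of each other. With 1 library per line there was no replicate spread and no test could be made, and a difference of at least 1 in either direction is called past the limit. The methods of the study set this limit for genes, and it was applied to peaks here as well. The number of reads behind each value is unknown, since the table holds no counts.

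Chemokines are small secreted proteins that attract leukocytes. CXCL1, CXCL2, CXCL3, CXCL5 and CXCL8 lie in 1 cluster on chromosome 4 and act on neutrophils through CXCR2, and CXCL8 also through CXCR1. CCL20 attracts cells that carry CCR6. IL6 and LIF signal through receptors that contain IL6ST, and IL1A and IL1B through IL1R1 with IL1RAP. Transcription of these genes is typically switched on by NF-κB together with AP-1 and C/EBP factors, and their short-lived mRNAs are removed by proteins such as ZFP36. Airway epithelial and carcinoma cells are a known source of several of them. H3K27ac, the acetylation of lysine 27 of histone H3, marks active promoters and enhancers.

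The stretches below are the 200 bases before the RefSeq start (GRCh38.p14) of the 3 chemokine genes whose RNA passed the limit in a resistant line, and of IL6, whose start lay in the peak that differed most in erCriz0 among the start peaks of these genes. Each is written 5′ to 3′ on the strand of its gene, with matches to the NF-κB motif, the AP-1 motif TGANTCA and the longest word shared by the 5 CXC windows in capitals. CXCL8 lies on the plus strand at chr4:73740369-73740568, CXCL1 on the plus strand at chr4:73869193-73869392, CXCL2 on the minus strand at chr4:74099196-74099395, and IL6 on the plus strand at chr7:22727000-22727199.
CXCL8: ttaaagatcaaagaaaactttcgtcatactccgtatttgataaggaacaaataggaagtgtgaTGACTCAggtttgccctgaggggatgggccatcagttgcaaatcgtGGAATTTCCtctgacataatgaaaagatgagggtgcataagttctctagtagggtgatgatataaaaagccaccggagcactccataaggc
CXCL1: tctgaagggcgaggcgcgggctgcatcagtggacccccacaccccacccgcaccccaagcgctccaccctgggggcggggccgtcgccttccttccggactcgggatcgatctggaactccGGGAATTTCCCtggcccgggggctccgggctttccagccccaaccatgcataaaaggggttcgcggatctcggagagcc
CXCL2: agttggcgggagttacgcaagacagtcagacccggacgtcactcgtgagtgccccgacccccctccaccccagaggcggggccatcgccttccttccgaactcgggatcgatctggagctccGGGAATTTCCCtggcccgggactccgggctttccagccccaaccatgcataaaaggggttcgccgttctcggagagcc
IL6: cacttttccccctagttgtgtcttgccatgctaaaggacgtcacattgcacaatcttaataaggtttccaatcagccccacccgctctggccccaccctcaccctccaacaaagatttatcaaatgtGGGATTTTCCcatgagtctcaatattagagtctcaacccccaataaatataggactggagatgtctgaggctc

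RefSeq windows of 300 bases around the start (250 before and 50 after) were found for 9 of the 10 genes, all but LIF. Searched on both strands, the NF-κB motif was present in CXCL1, CXCL2, CXCL3, CXCL5, CCL20 and IL6, that is in 6 of the 9 genes, and in 5.91% of all 35116 windows. The AP-1 motif was present in CXCL8 and IL1A, and in 7.71% of all windows. In CXCL8 it lay at bases −137 to −131. The C/EBP motif TTGCNNAA was found in CXCL2, IL6 and IL1B and in 10.5% of all windows, and the TATA box TATAAA in CXCL8, CCL20 and IL1A and in 11.5%. The TATAAA match began at base −31 in CXCL8 and −29 in CCL20, but at −239 in IL1A. The longest word common to CXCL8, CXCL1, CXCL2, CXCL3 and CXCL5 was GGAATTTCC, which overlaps the NF-κB motif and was chosen after the windows were compared. It began at base −91 in CXCL8, −90 in CXCL5, −78 in CXCL1 and CXCL3 and −77 in CXCL2, counted back from the base before the start, and 0.461% of all windows held it. The CXCL8 stretch did not match the full NF-κB motif. The 200 bases shown for CXCL1 and CXCL2 were 77.2% identical in a global alignment, against 45.1% for CXCL8 and CXCL1.

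The lines carried the RNA of lung epithelium. All 8 epithelial markers (EPCAM, CDH1, KRT7, KRT8, KRT18, KRT19, ELF3 and CLDN4) were past the read minimum and none differed by 1 in any line, and the lung factor NKX2-1 lay between 8.67 and 9.18. Of the 4 other lung adenocarcinoma markers SLC34A2 alone was measurable, and it was higher by 5.62 in erCriz0. No macrophage, neutrophil or lymphocyte marker of 19 listed reached the minimum, and PTPRC, the common leukocyte gene, was listed at 0 in all libraries. CD14, at 4.31 to 4.53, and CD79A, at 4.47 in naive and 3.48 to 3.71 in the resistant lines, lay nearest to the minimum of 4.64. Of the fibroblast markers COL1A1 alone reached it. Of 5 endothelial markers CDH5 and KDR reached it. CDH5 reached it only in erAlec0 and erLor0, the 2 lines in which CXCL8 was higher, and differed there by 1.68 and 1.54, while KDR differed by −0.56 in erAlec0, by 0.43 in erLor0 and by −1.15 in erCriz0, and PECAM1 and VWF did not exceed 0.19 in any library. The summed level of the endothelial list was 6.84 in naive, 6.93 in erAlec0, 7.498 in erLor0 and 6.01 in erCriz0, and its part in the results below was not tested. In such bulk libraries fewer cells that make an RNA and less RNA per cell cannot be told apart.

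CXCL8 RNA, which encodes the main human neutrophil attractant, was higher in the alectinib-resistant and lorlatinib-resistant lines than in the naive line. The gene (ENSG00000169429.11) lies on the plus strand of hg38 at chr4:73740541-73743716. Its rlog level was 8.48 in naive, 11.21 in erAlec0, 10.03 in erLor0 and 8.04 in erCriz0. The difference was 2.74 in erAlec0, the fifth highest of 12701 expressed genes, 1.56 in erLor0, the 24th highest, and −0.44 in erCriz0. Thus erAlec0 stood highest and erCriz0 lowest, with erLor0 1.18 below erAlec0. Per kb of exon, CXCL8 exceeded 75.2% of expressed genes in naive, 97.1% in erAlec0, 92.4% in erLor0 and 67.4% in erCriz0.

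CXCL2 and CXCL1, whose products act on neutrophils through CXCR2, followed the same order of the 2 upper lines. CXCL2 (ENSG00000081041.9) lies on the minus strand at chr4:74097040-74099196 and CXCL1 (ENSG00000163739.5) on the plus strand at chr4:73869393-73871308. CXCL2 RNA had a level of 5.57 in naive, 7.52 in erAlec0, 6.57 in erLor0 and 5.93 in erCriz0. It was higher by 1.95 in erAlec0, rank 29 of all expressed genes, by 0.998 in erLor0, just under the limit, and by 0.36 in erCriz0. CXCL1 RNA was at 5.42 in naive, 6.64 in erAlec0, 5.81 in erLor0 and 5.004 in erCriz0. Only in erAlec0 was CXCL1 past the limit, at 1.23, against 0.39 in erLor0 and −0.41 in erCriz0. These genes have close paralogs. Of the 50-base words in the annotated transcripts of CXCL2, 13.4% also occurred in CXCL1 or CXCL3, and the figure was 4.57% for CXCL1 and 6.01% for CXCL3, so their counts are uncertain to the extent that reads fell there. CXCL8 shared no such word with any other CXCL gene or with the other genes of the set.

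**Figure D1:**
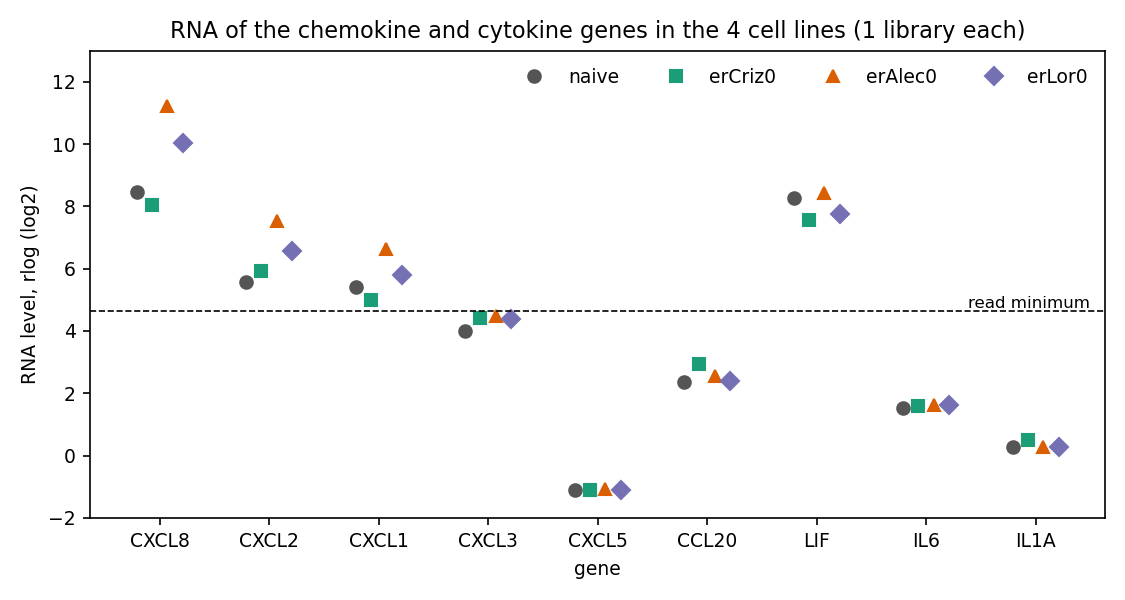
RNA level (rlog, log2) of the 9 genes with a row, 1 point per line and gene, with the read minimum as a dashed line. CXCL8, CXCL2 and CXCL1 stood highest in erAlec0 and next highest in erLor0, and 5 genes lay under the minimum in all 4 lines. Heights are not comparable between genes, since they are not scaled by length.

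LIF, a cytokine of the IL6 family, was expressed in all lines and differed by less than 1 in each. LIF (ENSG00000128342.5) lies on the minus strand at chr22:30240453-30246759. Its level was 8.28 in naive, 8.42 in erAlec0, 7.76 in erLor0 and 7.57 in erCriz0. The differences were 0.14 in erAlec0, −0.52 in erLor0 and −0.71 in erCriz0, so that LIF stood lower in 2 of the 3 resistant lines. LIF overlaps the antisense genes LIF-AS1 and LIF-AS2, and the strand setting of the counting is not given in the sources used here.

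The other 5 genes stayed under the read minimum in every library. CXCL3 came nearest to it, with 4.002 in naive, 4.49 in erAlec0, 4.38 in erLor0 and 4.403 in erCriz0, or 0.49 from lowest to highest. CCL20 was at 2.37 in naive, 2.55 in erAlec0, 2.39 in erLor0 and 2.93 in erCriz0. IL6 was at 1.52 to 1.62, IL1A at 0.28 to 0.52 and CXCL5 at −1.11 to −1.08. At these levels a difference was not detectable, and none of these genes was past the limit in any line. IL6 overlaps STEAP1B and IL6-AS1 on the opposite strand, and CXCL5 overlaps a non-coding gene there.

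Counted together, CXCL8, CXCL2 and CXCL1 were up by at least 1 in erAlec0, which is 3 of the 4 expressed members, against 2.46% of all expressed genes. In erLor0 this was 1 of 4, CXCL8, against 1.1%, and in erCriz0 it was 0 of 4 against 2.65%. None was down by 1 or more in any line, where the share of all expressed genes was 2.07% in erAlec0, 0.74% in erLor0 and 1.65% in erCriz0. The median difference of the 4 genes was 1.59 in erAlec0, 0.69 in erLor0 and −0.42 in erCriz0, and that of all expressed genes was within 0.02 of 0 in each line. CXCL8, CXCL2 and CXCL1 lie in 1 cluster, and CXCL2 and CXCL1 are also close in sequence, so they are not independent observations.

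**Figure D2:**
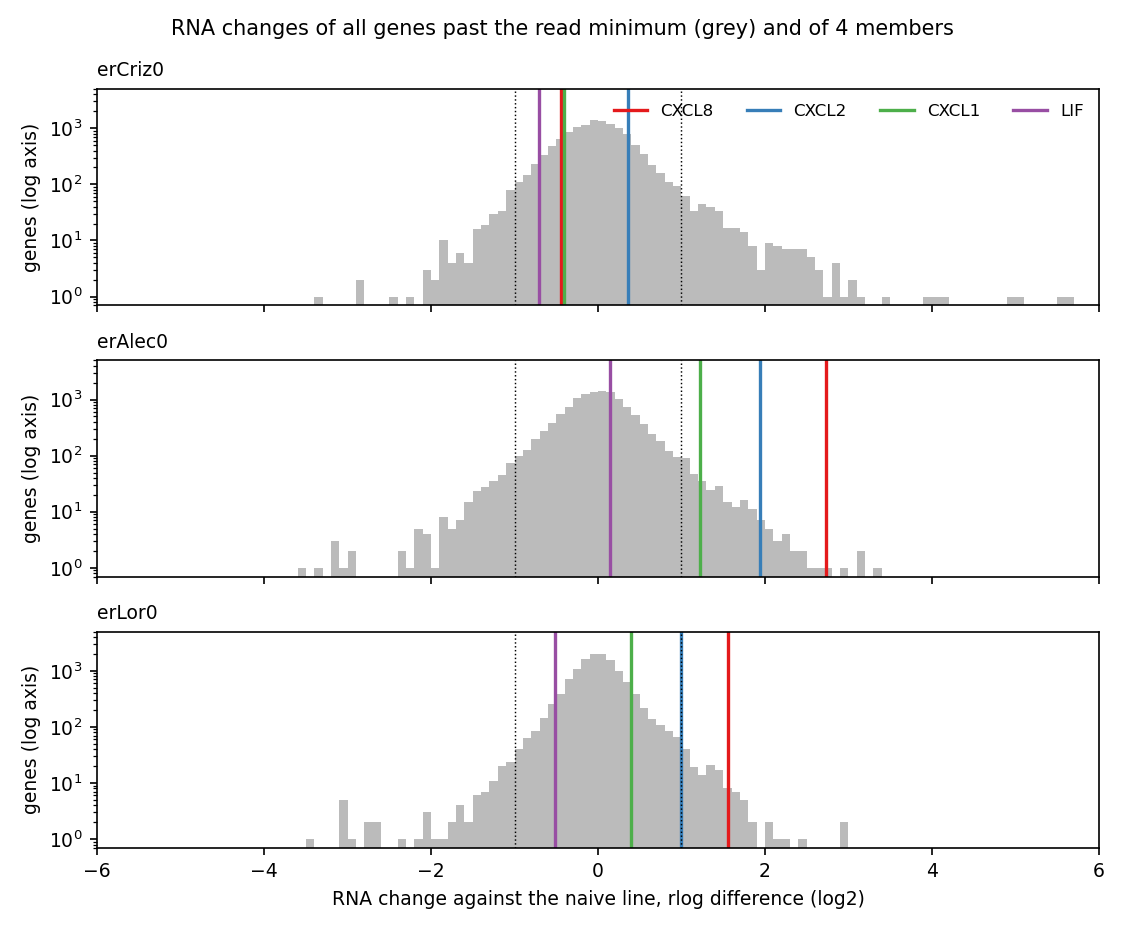
RNA differences from naive (rlog, log2) of the 12701 genes past the read minimum, as grey histograms with a log axis for the number of genes, 1 panel per resistant line, with CXCL8, CXCL2, CXCL1 and LIF as coloured lines and the limit of 1 dotted. In erAlec0 the CXCL8 line lies at 2.74, in the upper tail, while in erCriz0 all 4 genes lie between −0.71 and 0.36.

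The genes whose 3 RNA differences were nearest to those of CXCL8 were KRT17, MSLN, PTGS2, IL11 and UPP1, at Euclidean distances of 0.58 to 0.99. KRT17, a basal keratin, showed RNA differences of 2.20 in erAlec0, 1.39 in erLor0 and −0.31 in erCriz0. MSLN, the cell-surface protein mesothelin, differed by 2.14, 1.65 and 0.25 in the same order. PTGS2, the inducible cyclooxygenase, differed by 2.28, 0.86 and −0.06, and was also on the list of target genes described below. This likeness rests on 3 differences that share 1 naive library, and is a description only.

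Of the 37 measurable H3K27ac peaks of these genes, 16 were higher than naive in erAlec0, 6 in erLor0 and 12 in erCriz0, where 51.9%, 53.0% and 53.3% of all measurable peaks were higher. In erCriz0 1 of the 37 was up by at least 1 and 10 were down, against 8.24% and 5.71% of all peaks. In erAlec0 3 were up and 3 down, against 15.5% and 9.99%. In erLor0 1 was up and 6 were down, against 9.36% and 9.04%. The median difference of the 37 peaks was −0.19 in erAlec0, −0.47 in erLor0 and −0.33 in erCriz0, and over all peaks it was 0.05, 0.06 and 0.05. For the 7 of these peaks within 1 kb of a start the erCriz0 median was 0.21. Peaks of neighbouring genes lie close together, so the 37 peaks are not independent of each other. An offset of 1 stretch of chromosome moves its peaks together, and copy number was not analysed here.

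The peak over the start of CXCL8, at chr4:73737627-73741926 (hg38), was lower than naive in all 3 resistant lines, and CXCL8 RNA was higher in 2 of them. Its level was 8.59 in naive, 7.28 in erAlec0, 7.59 in erLor0 and 7.93 in erCriz0. The difference was −1.31 in erAlec0, −0.998 in erLor0 and −0.67 in erCriz0, so that erAlec0, with the most CXCL8 RNA, had the least H3K27ac there. Scaled per kb, the peak exceeded 38.03% of 10108 promoter peaks in naive, 3.42% in erAlec0, 4.30% in erLor0 and 8.96% in erCriz0. The stretch shown above for CXCL8, with its AP-1 match, lies inside this peak. Over the promoter peaks of 11537 expressed genes the median difference was 0.24 in erAlec0, 0.40 in erLor0 and 0.34 in erCriz0. Relative to the median of the 83 other peaks within 2 Mb, the CXCL8 difference was −1.001 in erAlec0, −0.54 in erLor0 and −0.78 in erCriz0. On this scale erCriz0 thus stood below erLor0. This window was chosen after the data were seen. Relative to the 287 other peaks within 5 Mb the difference was −1.65 in erAlec0, −1.11 in erLor0 and −0.69 in erCriz0.

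After the values of CXCL8 were seen, expressed genes with RNA up by at least 1 and a peak over a start were counted: in erAlec0 the promoter peak was down by at least 1 in 10 of 259, or 3.86%, CXCL8 among them, and in erLor0 in 2 of 113, or 1.77%, to which CXCL8 at −0.998 did not belong. Counting any lower promoter peak, these were 82 of the 259, or 31.7%, in erAlec0 and 22 of the 113, or 19.5%, in erLor0. The median promoter difference of these genes was 0.37 in erAlec0 and 0.78 in erLor0, against 0.24 and 0.40 over all 11537 expressed genes with such a peak. The share of lower promoter peaks over all of those genes was not computed, so a base rate for these percentages is lacking. The RNA and the chromatin were separate preparations, and whether they came from the same cultures is not given in the sources used here.

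**Figure D3:**
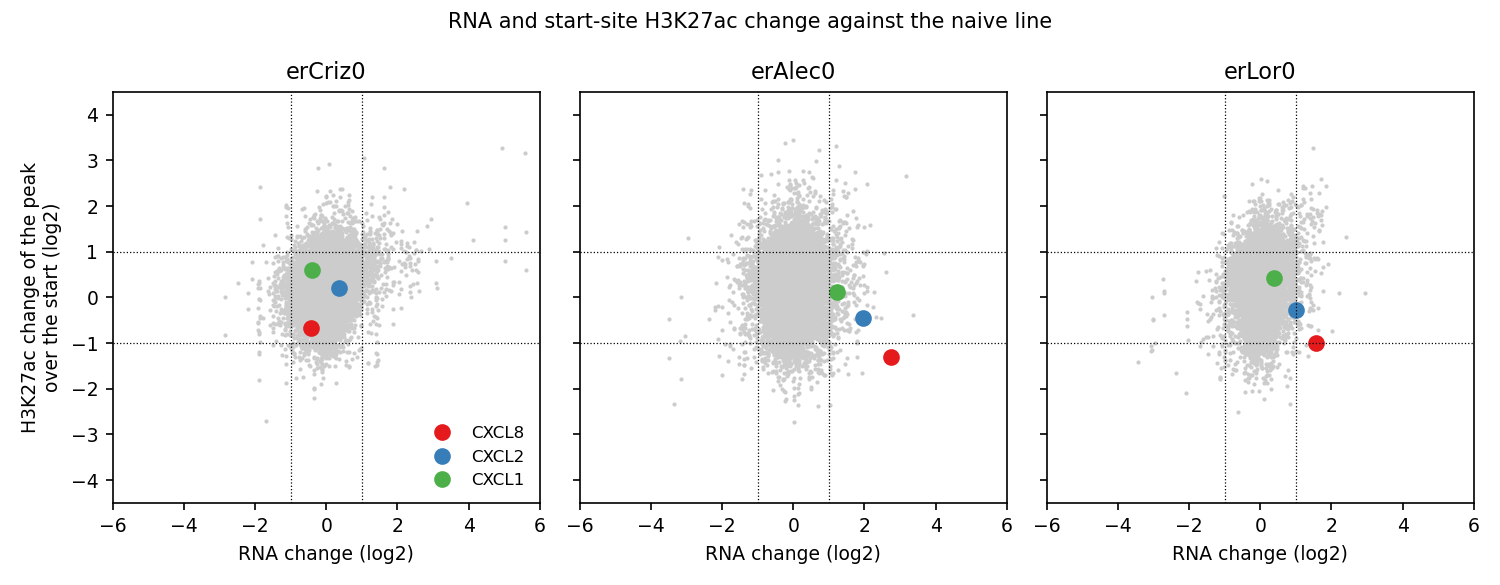
Difference of the peak over a start (H3K27ac, rlog) against the RNA difference (rlog) for expressed genes in each resistant line, in grey, with CXCL8, CXCL2 and CXCL1 coloured and the limits dotted. CXCL8 lies to the lower right in erAlec0, at 2.74 for RNA and −1.31 for H3K27ac, and near the limit of −1 in erLor0. LIF is not drawn, since no peak covered its start.

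The other 5 measurable peaks of CXCL8 all lay upstream. The broadest, 10945 bp long and centred at −11.1 kb from the start at chr4:73724021-73734965, was at 10.45 in naive, 10.70 in erAlec0, 10.45 in erLor0 and 10.37 in erCriz0. It held close to its naive level in all lines, within 0.25. Chosen after its values were seen, the farthest peak, centred at −22.2 kb, was lower by 0.70 in erAlec0 and by 1.26 in erLor0. Altogether 6 of 6 CXCL8 peaks were lower than naive in erCriz0 and erLor0, the broad one by as little as 0.002 in erLor0, and 5 of 6 were lower in erAlec0, against the shares of all peaks given above.

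**Figure D4:**
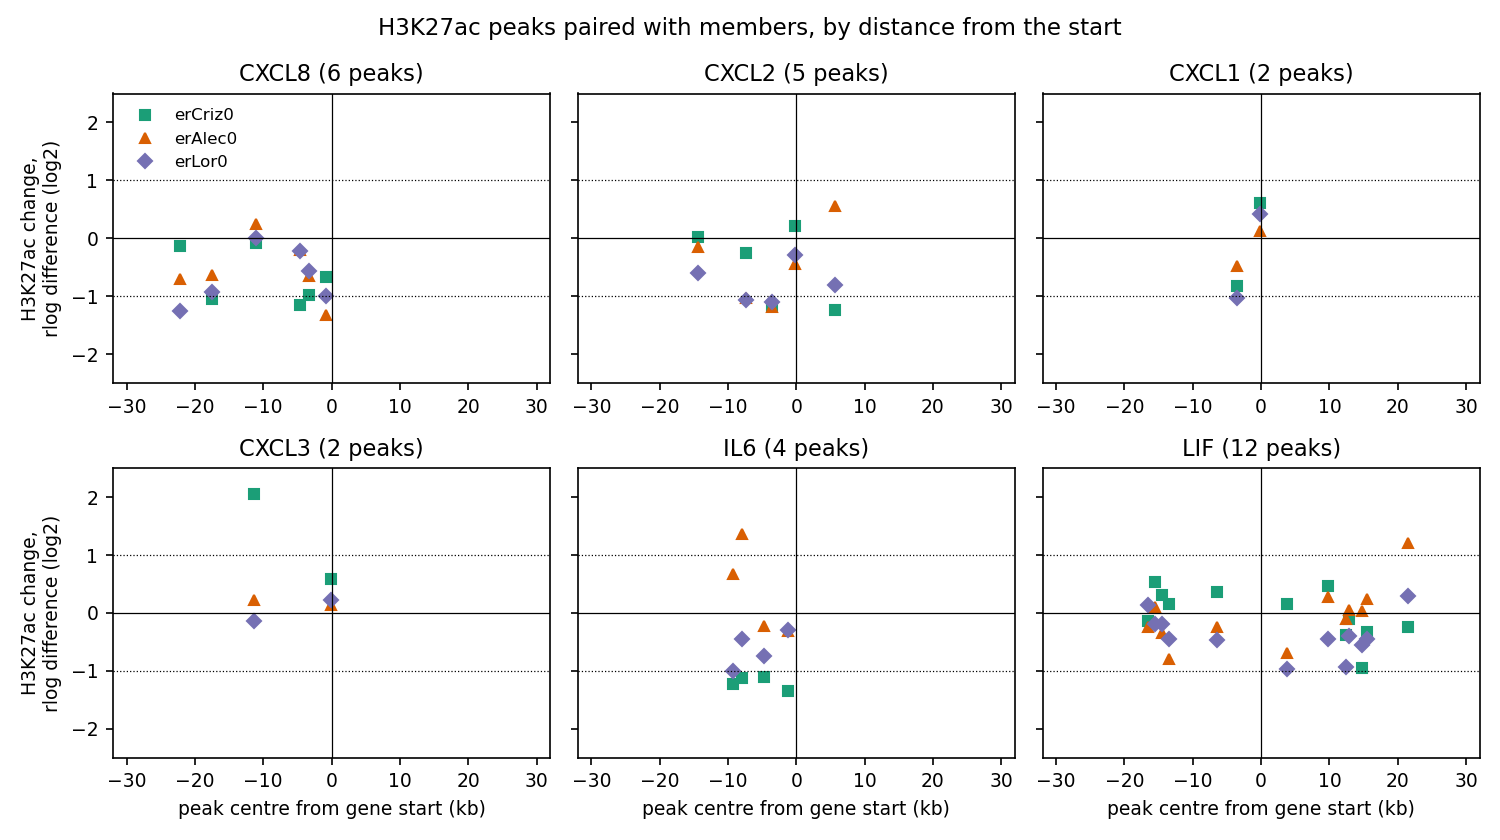
Difference from naive (H3K27ac, rlog) of each measurable peak against the distance of its centre from the start of its gene in kb, upstream to the left, for CXCL8, CXCL2, CXCL1, CXCL3, IL6 and LIF, with the 3 resistant lines as symbols. Most CXCL8 and CXCL2 points lie under 0, the 4 IL6 points of erCriz0 lie under −1, and 1 CXCL3 peak stands at 2.06 in erCriz0 alone.

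Start peaks of CXCL1, CXCL2 and CXCL3 differed by less than 1 in every line. That of CXCL2, at chr4:74097630-74101285, was at 8.98 in naive, 8.53 in erAlec0, 8.70 in erLor0 and 9.18 in erCriz0, and it also covers the start of a non-coding gene. That of CXCL1, at chr4:73867935-73870613, was at 7.99, 8.12, 8.40 and 8.59 in the same order. For CXCL1 all 3 resistant lines were higher than naive, by 0.13 to 0.60. For CXCL2 the peak was lower by 0.45 in erAlec0 and 0.28 in erLor0 and higher by 0.21 in erCriz0, while CXCL2 RNA was above naive in all 3 lines. These signs turned in some cases when the peaks were scaled otherwise. Quantile normalization gave −0.07 for CXCL1 in erAlec0 and −0.09 for CXCL2 in erCriz0, and subtracting the median of other peaks within 2 Mb gave 0.14 for CXCL2 in erLor0. The CXCL3 start peak was at 6.62 in naive and 6.75 to 7.20 in the resistant lines.

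Away from the starts, 1 CXCL2 peak was lower by more than 1 in all 3 lines. This peak, at chr4:74101517-74103857 and 2321 bp from the start, was chosen after its values were seen, and stood at 6.83 in naive, 5.65 in erAlec0, 5.72 in erLor0 and 5.66 in erCriz0. Of all measurable peaks, 9.99% were down by at least 1 in erAlec0, 9.04% in erLor0 and 5.71% in erCriz0. The share down in all 3 lines was not computed. The 88 other peaks within 2 Mb of CXCL2 had medians of −0.22 in erAlec0, −0.42 in erLor0 and 0.15 in erCriz0. Within 5 Mb the medians were 0.34, 0.14 and 0.05 in the same order. The CXCL2 peak with the largest difference, at chr4:74094689-74094959, was under the read minimum in every library. For CXCL1 the largest difference was −1.03 in erLor0, in a weak peak at chr4:73865555-73866145 whose highest level was 4.39. CXCL3 had a peak 10788 bp upstream, at chr4:74049595-74050536, with 3.08 in naive, 3.30 in erAlec0, 2.94 in erLor0 and 5.14 in erCriz0. It was higher by 2.06 in erCriz0 and near naive elsewhere, while CXCL3 RNA was under the minimum throughout. The 1 peak of CXCL5, shared with CXCL3, was also under its minimum.

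IL6 carried a broad start peak although its RNA was close to the floor. At chr7:22723180-22728888 this peak was at 9.13 in naive, 8.81 in erAlec0, 8.83 in erLor0 and 7.78 in erCriz0. It was lower by 1.34 in erCriz0, which took it from above 43.9% to above 3.39% of promoter peaks per kb, and differed by −0.32 in erAlec0 and −0.30 in erLor0. The peak also covers starts of IL6-AS1 and STEAP1B, so it cannot be assigned to IL6 alone. All 4 measurable IL6 peaks were down by more than 1 in erCriz0, by 1.11 to 1.34, where the median over the other 333 peaks in a 5 Mb surround was −0.18 and over the 157 within 2 Mb was −0.32. The IL6 peak with the largest difference, an intronic one at chr7:22729037-22729282, was under the read minimum. In an intron of STEAP1B, the peak at chr7:22718486-22719903 differed from naive in opposite directions, with 5.59 in naive, 6.95 in erAlec0, 5.15 in erLor0 and 4.47 in erCriz0.

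No peak covered an annotated start of LIF, CCL20, CXCL5 or IL1A. At LIF a peak ended 322 bp and another began 262 bp from a start, and the upstream one, at chr22:30247021-30259537, was at 11.17 in naive, 10.93 in erAlec0, 10.70 in erLor0 and 11.53 in erCriz0. Of the 12 LIF peaks 10 were lower than naive in erLor0 and 6 in each of the other lines, the latter close to the share of all peaks, and 1 passed the limit. That peak, downstream of the gene at chr22:30220463-30230070, was at 9.63 in naive, 10.83 in erAlec0, 9.91 in erLor0 and 9.39 in erCriz0, and thus differed by 1.20 in erAlec0. In that line 15.5% of all measurable peaks were up by at least 1, and the median over the 349 other peaks within 5 Mb of LIF was 0.29. LIF RNA differed there by 0.14.

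All 5 CCL20 peaks were lower than naive in erCriz0, with a median of −0.73, and 4 of 5 in erLor0, with a median of −0.99. In erAlec0 3 of 5 were lower, none of them by 1, with a median of −0.66. Of all measurable peaks 53.3% were higher than naive in erCriz0, 53.0% in erLor0 and 51.9% in erAlec0, where 9.99% were down by at least 1. The median over the 361 other peaks within 5 Mb was −0.22 in erCriz0, 0.004 in erLor0 and 0.05 in erAlec0. The CCL20 peak with the largest difference, 239 bp past the end of the gene at chr2:227817803-227820995, was at 8.13 in naive, 7.32 in erAlec0, 6.59 in erLor0 and 7.71 in erCriz0. It was thus lower by 1.53 in erLor0. For IL1A 1 of 5 peaks was measurable. It lay over a start of CKAP2L at chr2:112764068-112765182, was higher by 1.31 in erAlec0 and 1.11 in erLor0, and cannot be assigned to IL1A. The IL1A peak with the largest difference, at chr2:112793501-112793858, was under the read minimum.

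Not all receptors for these ligands were measurable. The chemokine receptors were under the read minimum or had no row: CXCR1 lay near −1.73 in all libraries, CCR6 was listed at 0, and CXCR2 and ACKR1 had no row. IL1R2 was also under the minimum, at 3.14 to 4.05, and IL1RN had no row. Of 13 receptors and antagonists listed 7 were measurable, and the number up by 1 or more was 2 in erAlec0, 0 in erLor0 and 3 in erCriz0. The shares of all expressed genes up were 2.46%, 1.1% and 2.65% in the same order. None of the 7 was down, against 2.07%, 0.74% and 1.65% of all expressed genes. IL1R1, the receptor for IL1A and IL1B, was at 5.94 in naive and 8.30 in erCriz0, a difference of 2.36. OSMR, which pairs with IL6ST to bind oncostatin M, was at 10.70 in naive, 12.12 in erAlec0, 11.59 in erLor0 and 13.01 in erCriz0, higher by 2.31 in erCriz0, while the excess was 1.42 in erAlec0 and 0.89 in erLor0. IL6ST, the signalling subunit shared by IL6 and LIF, was higher by 1.501 in erCriz0 and differed by 0.21 in erAlec0 and −0.01 in erLor0. Medians of the list were 0.78 in erAlec0, 0.41 in erLor0 and 0.74 in erCriz0.

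Among 22 other ligands, 18 had a row and 5 were measurable, with 1 up in each line and none down. Over all expressed genes 2.46% were up in erAlec0, 1.1% in erLor0 and 2.65% in erCriz0, and 2.07%, 0.74% and 1.65% were down. IL11, a further IL6-family cytokine, was at 3.66 in naive, 6.05 in erAlec0, 4.53 in erLor0 and 3.80 in erCriz0, higher by 2.38 in erAlec0, the only line in which it reached the read minimum. CXCL17, a mucosal chemokine, was higher by 1.599 in erLor0, and TSLP, an epithelial cytokine, by 1.003 in erCriz0. The inflammatory ligands TNF, CXCL10, CCL2, CSF2 and CSF3 were all under the minimum. Median differences were 0.46 in erAlec0, 0.63 in erLor0 and 0.14 in erCriz0.

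Of 18 measurable genes of the 19 listed for the NF-κB pathway, only IKBKB, the kinase that releases NF-κB, was past the limit, higher by 1.28 in erCriz0, a count near the share of all expressed genes, and list medians were 0.15 (erCriz0), 0.14 (erAlec0) and −0.01 (erLor0). NFKBIZ, a co-activator of IL6 and related genes, differed by 0.97 in erCriz0 and 0.78 in erAlec0, and NFKB2, an NF-κB subunit, by 0.84 in erAlec0. Among 12 factors that share these promoters, all measurable, 2 were up in erCriz0, CEBPD by 1.39 and FOSL2 by 1.28, and none in erAlec0 or erLor0. The shares of all expressed genes up were 2.65% in erCriz0, 2.46% in erAlec0 and 1.1% in erLor0. CEBPB, the C/EBP factor best known at IL6, differed by −0.93 in erCriz0. List medians were 0.32 in erAlec0, 0.08 in erLor0 and −0.40 in erCriz0.

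Of 6 genes of mRNA decay and feedback, SOCS3, a feedback inhibitor of IL6-family signals, was past the limit, at 8.21 in naive, 9.45 in erAlec0, 8.56 in erLor0 and 10.53 in erCriz0. It was higher by 2.32 in erCriz0 and 1.24 in erAlec0, where 2.65% and 2.46% of all expressed genes were up by at least 1. ZFP36, which binds and removes chemokine mRNAs, differed by 0.98 in erAlec0, and ZFP36L1 by −0.72 in erCriz0. The list medians were 0.30 in erAlec0, 0.09 in erLor0 and 0.18 in erCriz0.

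Other genes that answer to the same signals passed the limit in each line. Of 16 listed 10 were measurable, of which erAlec0 had 3 up and 0 down, erLor0 2 up and 2 down, and erCriz0 3 up and 1 down. Over all expressed genes 2.46%, 1.1% and 2.65% were up in the same order, and 2.07%, 0.74% and 1.65% were down. MMP1, a collagenase, was at 6.14 in naive, 9.08 in erAlec0, 9.13 in erLor0 and 8.56 in erCriz0. It alone of the list was past the limit in all 3 lines. PTGS2 was at 6.76 in naive, 9.04 in erAlec0, 7.62 in erLor0 and 6.70 in erCriz0, in the same order of lines as CXCL8. C3, the central complement component, was higher by 2.23 in erCriz0, and was under the read minimum in naive and erLor0. The list medians were 0.50 in erAlec0, 0.39 in erLor0 and 0.28 in erCriz0.

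**Figure D5:**
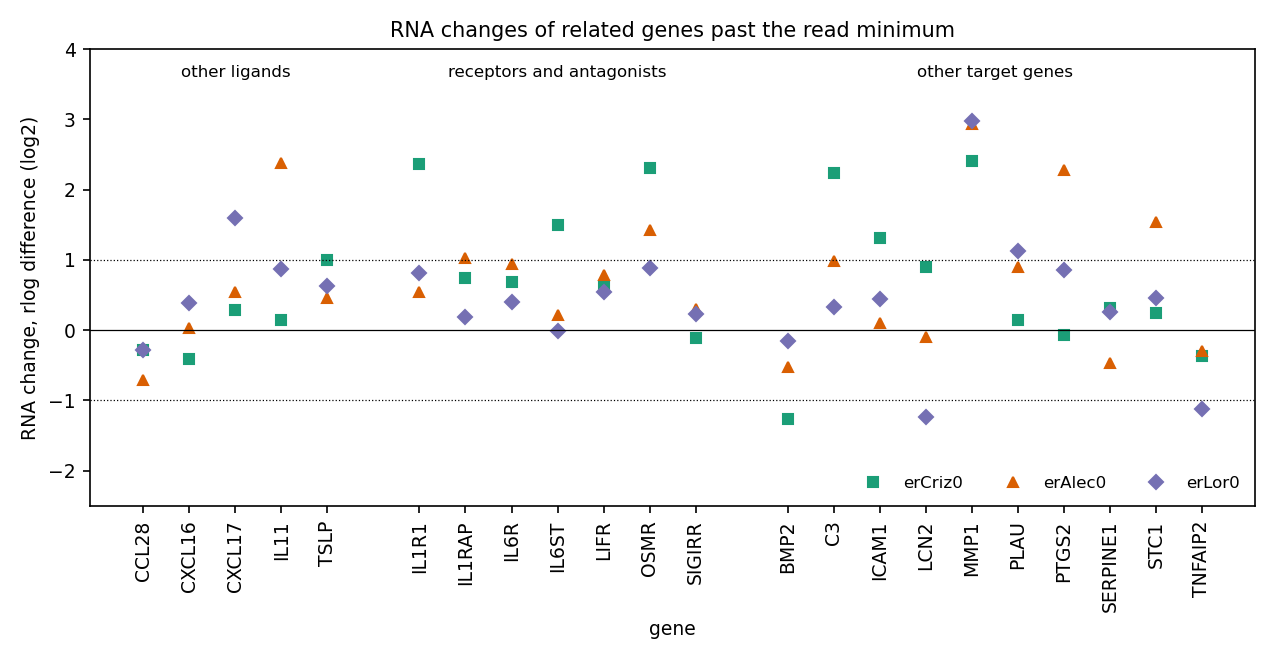
RNA differences from naive (rlog, log2) of the 22 measurable genes among other ligands, receptors and antagonists, and other target genes, with the 3 resistant lines as symbols and the limits of 1 and −1 dotted. IL1R1, OSMR, IL6ST and C3 stand highest in erCriz0, IL11 and PTGS2 in erAlec0, and MMP1 is past the limit in all 3 lines.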

How the data were processed

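H3K27ac ChIP-seq and RNA-seq of 4 H3122 lines were analysed from 1 table. Reads were aligned by the authors to hg38 (RNA with HISAT2, ChIP with BWA), counted with HTSeq-count or featureCounts over MACS2 peaks (q under 0.05) merged over the 4 samples, and turned into rlog values by DESeq2; tool versions are not given in the sources used here. The deposited log2 (rlog) values were used as they stand. The table's correlation, p-value and mean columns were not used. Gene names, starts and overlaps came from GENCODE release 44. The limit for genes (1), read minimums (25 and 15) and pair distance (20 kb) follow the study, and the same limit was used here for peaks. Differences, medians and counts were computed with Python 3.11.15, pandas 2.3.3 and numpy 2.4.6, and the code was tested on simulated data. All 10 members, the start peak and most changed peak of each, and up to 3 genes per related list were named, with others marked as chosen later; the receptors and ligands under the minimum were also added after their values were seen. The members and lists were chosen with earlier results of these data known.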

Additional observations from a re-analysis of the deposited data

Results flagged for a closer look

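The peak at chr7:22718486-22719903, in an intron of STEAP1B and paired with IL6, differed from naive in opposite directions in 2 lines. Its difference from naive was −1.12 in erCriz0 and 1.36 in erAlec0. Each line had 1 library, and the difference between the lines was not tested.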

How the results depend on the processing

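No library could be left out, since each line had 1. Fold values carry no replicate error, depth is unknown, and rlog shrinks differences of weak genes and peaks, so calls near the limit, such as CXCL2 RNA in erLor0 and the CXCL8 start peak there, may fall on either side. Copy number, strand and paralog sharing of reads limit single values. Centring on the median of expressed genes gave 2 RNAs up in erLor0, CXCL2 having crossed the limit, and quantile normalization left the RNA counts as they were and moved the medians by less than 0.2. With no filter on low values the RNA medians were 0.18 in erAlec0, 0.10 in erLor0 and 0.064 in erCriz0, with the 5 genes under the minimum added. A minimum of 100 reads gave RNA medians of 1.95 in erAlec0 and 0.998 in erLor0. Without CXCL1, CXCL2 and CXCL3, 1 RNA was up in erAlec0. At a limit of 2 this was 1 in erAlec0 and 0 in erLor0, and at a limit of 1.5-fold 2 were up in erLor0 and 1, LIF, was down in erCriz0. For peaks, the 1.5-fold limit gave 3 up and 16 down in erCriz0, 11 down in erAlec0 and 15 down in erLor0. With no filter, 5 were down in erAlec0 and 11 in erLor0. The 17 peaks within 5 kb gave 0 up in each line, 6 down in erCriz0, and medians of −0.67 (erCriz0), −0.45 (erAlec0) and −0.73 (erLor0). The 7 peaks within 1 kb of a start gave 0 up in each line, 1 down in erCriz0 and 1 in erAlec0, 0 down in erLor0, and a median of 0.21 in erCriz0. Relative to other peaks within 5 Mb, 5 were down in erAlec0 and 10 in erLor0, 0 were up in erLor0, and the medians were −0.53 and −0.75. The sets within 5 kb and 1 kb hold fewer peaks, so their counts cannot be compared directly with those of the full set. Shares of all genes and of all peaks are not given for the altered settings in this section. These counts therefore show only how the member counts moved, and not whether they differ from the general rate. The cause of the shifts was not tested. Centring or quantile normalization of the peaks, counting each pair, and the 2 Mb surround, the last chosen after the data were seen, kept the counts within 1.5 times and the medians within 0.2. Centring and quantile normalization moved no single RNA difference of a member by more than 0.055.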
